A study of Mus musculus with 30 samples.

Results

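Axin2, Apcdd1, Znrf3, Rnf43, Nkd1, Notum, Sp5, Lef1, Tcf7 and Tcf7l2 are genes through which beta-catenin signaling is read out, restrained or carried to DNA. These 10 genes were chosen by symbol, with no threshold on a measured value, but with earlier results of these data known. Counts of them are therefore descriptions. All 10 were found among the 53431 genes of the deposited tables. They were followed in CT-26 and Colon 26, a pair of BALB/c mouse colon carcinoma cell lines, grown in culture (3 libraries each) and as subcutaneous tumors of 100, 400 or 800 mm3 (4 libraries each). The tumors grew under the skin of the flank in female BALB/c mice, whose age is not given in the sources used here. The treatment protocol in the labels describes antibody dosing, but no label names an antibody for any of these tumors. They were taken as untreated, which was not checked. Colon 26 cells had been bought from more than 1 provider, and the labels do not say which stock was sequenced.

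In the canonical Wnt pathway, a destruction complex built on Axin and Apc proteins marks beta-catenin for degradation, and Wnt ligands stop this. Stabilized beta-catenin enters the nucleus and binds TCF/LEF factors, which otherwise sit on Wnt target genes with co-repressors. Many of the genes switched on in this way act back on the pathway, and the colon is the tissue in which loss of that restraint is best known from cancer. Axin2 is a scaffold of the destruction complex and a widely used readout of the pathway. Znrf3 and Rnf43 are membrane ubiquitin ligases that remove Wnt receptors. Apcdd1 is a membrane inhibitor of Wnt, Notum a secreted enzyme that inactivates Wnt ligands, Nkd1 a binder of Dishevelled, and Sp5 a transcription factor. Lef1, Tcf7 and Tcf7l2 encode factors of the TCF/LEF family, and Tcf7 and Lef1 are also expressed in T cells.

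In the GRCm38 build, the protein-coding gene Axin2 (ENSMUSG00000000142.15) spans positions 108920349 to 108950783 of chromosome 11 (plus strand). Chromosome 11 also carries Rnf43 (87662722 to 87735539, plus strand), Tcf7 (52252371 to 52283014, minus strand), Znrf3 (5276324 to 5444847, minus strand) and Notum (120653788 to 120661175, minus strand). Lef1 (ENSMUSG00000027985.14; chromosome 3, 131110471 to 131224356) and Tcf7l2 (chromosome 19, 55741820 to 55933654) are both on the plus strand. Nkd1 (chromosome 8, 88521354 to 88594884) and Sp5 (chromosome 2, 70474923 to 70477729) are on the plus strand as well. Exons of antisense genes overlap those of Axin2 (Gm11670, 209 bases), Lef1 (Gm43352, 1208 bases) and Notum (Myadml2os and Notumos). The sources used here do not give the handling of strand, so reads in these overlaps cannot be assigned to one gene with certainty.

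RefSeq promoter windows (GRCm38.p6, 250 bases before to 50 after a transcript start) were matched for 7 of the 10 genes. They were searched on both strands for CTTTGA, a form of the core of a TCF/LEF site, and for the longer CTTTGATC, which contains it. CTTTGA occurred in 16% and CTTTGATC in 0.939% of 32817 windows of this length. Among the windows nearest to each gene's start, the letters were found in that of Sp5, with CTTTGA at 204 and 104 bases before the start and CTTTGATC at the second of these places. Of 4 Lef1 windows, 2 lie at internal starts, and the one farther inside the gene held CTTTGA at 180 and 120 bases before that start, on the other strand, while the other 3 held none. The windows of Axin2, Tcf7, Tcf7l2, Nkd1 and Rnf43 held neither. The only Nkd1 window lies at an internal start, 6279 bases from the start of the gene. Other forms of the site were not searched, so windows without these letters may still hold one. The 250 bases before the start are shown for Axin2 (chr11:108920099-108920348) and Lef1 (chr3:131110073-131110322), the genes with the widest differences in opposite directions, and for the windows with matches, the internal Lef1 start (chr3:131156044-131156293) and Sp5 (chr2:70474673-70474922). All are on the plus strand and capitals mark the searched letters.
Axin2: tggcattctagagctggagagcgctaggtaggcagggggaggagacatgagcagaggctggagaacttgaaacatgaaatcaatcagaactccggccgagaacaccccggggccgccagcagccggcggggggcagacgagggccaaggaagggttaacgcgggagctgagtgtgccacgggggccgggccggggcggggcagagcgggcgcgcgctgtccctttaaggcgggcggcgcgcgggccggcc
Lef1: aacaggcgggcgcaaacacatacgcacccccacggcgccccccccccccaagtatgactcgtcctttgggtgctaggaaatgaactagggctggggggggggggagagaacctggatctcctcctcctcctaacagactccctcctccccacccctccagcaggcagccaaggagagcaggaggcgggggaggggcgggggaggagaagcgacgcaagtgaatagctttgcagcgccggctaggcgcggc
Lef1, internal start: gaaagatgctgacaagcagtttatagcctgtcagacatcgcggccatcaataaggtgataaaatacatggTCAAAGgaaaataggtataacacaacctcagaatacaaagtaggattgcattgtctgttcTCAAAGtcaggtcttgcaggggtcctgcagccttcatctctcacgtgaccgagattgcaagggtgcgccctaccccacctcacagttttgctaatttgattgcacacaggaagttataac
Sp5: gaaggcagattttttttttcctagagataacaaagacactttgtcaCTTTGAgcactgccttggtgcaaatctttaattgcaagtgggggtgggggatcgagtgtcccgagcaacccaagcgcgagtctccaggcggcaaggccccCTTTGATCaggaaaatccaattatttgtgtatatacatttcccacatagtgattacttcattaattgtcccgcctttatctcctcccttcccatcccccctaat

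Libraries held 21384697 to 39722554 counts on genes (median 28527391). The CT-26 cultures (21384697 to 27856353) were shallower than the Colon 26 cultures (36042918 to 39722554), and the library numbers of both sets of cultures form separate series, so that number series and cell line cannot be told apart in culture. Tumor library numbers lie outside both series. Number series and growth as a tumor therefore cannot be told apart either, also where the model difference is compared between culture and tumors. Levels are given as CPM, counts relative to the library total, scaled with edgeR's TMM factors over the 30 libraries, and levels are compared between genes only as FPKM, which are per gene length. A gene was called differentially expressed (DE) where edgeR's quasi-likelihood test gave an adjusted p no higher than 0.1 together with a log2 fold change of 1 or more in either direction. SE is the standard error of a log2 fold change. The tumor libraries of a group carry different tumor volumes in the labels and so came from different tumors. The labels do not say whether the culture libraries came from separate cultures, so their spread may be technical.

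Markers of colon epithelium were unevenly present in the cultures. The 9 markers of the list, which also holds Krt8, Krt18 and Cdh17, summed to 43.9 to 44.5 CPM in CT-26 and 15.4 to 16.8 CPM in Colon 26 cultures. Epcam had 0 counts in both lines, and Cdh1, Vil1 and Lgr5 were at or under 4 counts in every culture. Cdx2, a transcription factor of intestinal epithelium, averaged 0.155 and 5.94 CPM in CT-26 and Colon 26 cultures, and Krt20, a keratin of differentiated colon epithelium, 25.1 and 5.42 CPM.

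Markers of other cell types were higher in tumors than in culture. The summed level of 12 T cell markers was 3.05 to 6.81 CPM in cultures, mostly Lck, and 15.3 to 119 CPM in tumors. Ptprc, the leukocyte marker CD45, was at 0 to 0.209 CPM in cultures and 43.3 to 186 CPM in tumors. Sums of macrophage (3.76 to 67.6 against 207 to 1280 CPM), fibroblast (32.8 to 39.5 against 787 to 2180 CPM) and endothelial markers (0.586 to 18.6 against 59.2 to 195 CPM) also did not overlap between cultures and tumors. NK cell markers summed to 0.0743 to 0.244 CPM in culture and 0.683 to 19.6 CPM in tumors, adipocyte markers to 0.334 to 2.94 and 5.84 to 54.7 CPM, and pericyte markers to 34.1 to 158 and 95.8 to 343 CPM. B cell (0.0422 to 0.589 CPM) and keratinocyte sums (3.19 to 9.96 CPM, with 1 CT-26 tumor of 800 mm3 at 76.5 CPM) were low throughout. Skeletal muscle sums ran from 0.844 to 2190 CPM among tumors. In bulk tumor RNA, fewer cells of a type and less RNA per cell cannot be told apart.

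Axin2 separated the lines in culture and in tumors of every size. The 3 CT-26 cultures held 0.0371, 0.0418 and 0.140 CPM and the 3 Colon 26 cultures 4.61, 4.77 and 5.01 CPM. Every Colon 26 culture was therefore far above every CT-26 culture, where Axin2 had 5 counts in all. The log2 fold change of Colon 26 over CT-26 was 6.09 (SE 0.29, adjusted p = 1e-11 by edgeR). Because of the 5 counts, the pooled ratio with its 95% counting interval is also given, 69.3 (29.5 to 214), which covers counting error only.

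In tumors of 100 mm3, Axin2 was at 0.211, 0.275, 0.351 and 0.392 CPM in CT-26 and at 1.65, 1.69, 1.82 and 1.84 CPM in Colon 26. At 400 mm3 the CT-26 tumors held 0.269, 0.355, 0.443 and 0.471 CPM and the Colon 26 tumors 2.06, 2.46, 2.88 and 3.30 CPM. At 800 mm3 the levels were 0.176, 0.218, 0.227 and 0.270 CPM against 1.51, 1.65, 1.76 and 1.82 CPM. The models did not overlap at any size, and the gap was narrower than in culture. Axin2 was 5.55-fold, 6.90-fold and 7.47-fold higher in Colon 26 tumors of 100, 400 and 800 mm3, with log2 fold changes of 2.47 (SE 0.22), 2.79 (0.25) and 2.90 (0.23). The adjusted p-values by edgeR were 3.3e-05, 5.4e-05 and 5e-06.

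Apcdd1 (chromosome 18, 62922231 to 62961179, plus strand) was the member with the highest mean FPKM in all 4 Colon 26 groups (19.4 to 27.6 FPKM). In CT-26, Znrf3 had the highest mean in culture and Tcf7l2 in 100 mm3 tumors. Apcdd1 was also the highest in CT-26 tumors of 400 and 800 mm3, with means of 5.74 and 5.33 FPKM. The CT-26 cultures held 4.84, 5.87 and 6.02 CPM and the Colon 26 cultures 49.3, 53.2 and 54.8 CPM. The line difference was 9.73-fold, with a log2 fold change of 3.28 (SE 0.07, adjusted p = 4e-16 by edgeR). Apcdd1 thus differed in the same direction as Axin2, at a level that rests on 116 or more counts in every culture.

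Apcdd1 in tumors of 100 mm3 was at 8.27, 11.5, 14.7 and 17.9 CPM in CT-26 and at 57.9, 63.4, 68.2 and 69.9 CPM in Colon 26. In 400 mm3 tumors it was at 12.9, 16.5, 16.9 and 20.1 CPM against 73.9, 74.5, 77.2 and 79.4 CPM. In 800 mm3 tumors it was at 12.5, 13.3, 17.2 and 18.4 CPM against 55.2, 62.3, 74.7 and 76.4 CPM. No tumor of one model reached the range of the other. The log2 fold changes were 2.30 (SE 0.21), 2.20 (0.12) and 2.12 (0.15), or 4.91-fold, 4.60-fold and 4.35-fold. The adjusted p-values by edgeR were 3.6e-05, 5.7e-06 and 2.4e-06.

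Of the receptor-removing ligases, Znrf3 was not DE between the models and Rnf43 was DE at 2 tumor sizes only without the filter on low counts. Znrf3 was at 14.2, 14.4 and 14.7 CPM in CT-26 cultures and 20.9, 22.8 and 23.4 CPM in Colon 26 cultures. These groups did not overlap, but the 1.61-fold difference (log2 fold change 0.68, SE 0.06, adjusted p = 2.2e-08 by edgeR) was below the minimum fold for a DE call. In tumors Znrf3 ran from 10.1 to 13.8 CPM in CT-26 and from 11.1 to 17.4 CPM in Colon 26, with log2 fold changes of 0.20, 0.23 and 0.23 (SEs 0.12, 0.12 and 0.11) that did not pass the test.

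Rnf43, the other receptor-removing ligase, was much lower than Znrf3. In FPKM, group means were 0.0439 to 0.138 for Rnf43 against 2.0 to 4.21 for Znrf3. Rnf43 was at 0.140, 0.334 and 0.483 CPM in CT-26 cultures and 0.135, 0.269 and 0.481 CPM in Colon 26 cultures, overlapping groups with a log2 fold change of -0.08 (SE 0.49). In tumors of 100 and 400 mm3 it was below edgeR's filter, with means of 0.507 and 0.444 CPM in CT-26 and 0.213 and 0.180 CPM in Colon 26. Without the filter edgeR gave log2 fold changes of -1.21 and -1.26, which passed both thresholds (adjusted p = 0.094 and 0.096). The differences did not pass two-sided exact permutation tests (p = 0.086 and 0.057, adjusted p = 0.34 and 0.29 over 20 such tests on filtered members). With 4 against 4 libraries these tests allow no p below 0.029, so they could hardly pass after adjustment and decide little. At 800 mm3 the means were 0.553 and 0.436 CPM, a log2 fold change of -0.33 (SE 0.31).

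Nkd1, Notum and Sp5 were barely detected. Nkd1 had 1 count in the 6 cultures together and at most 8 counts in a tumor, Notum at most 4 counts and Sp5 at most 1 count in any library. Sp5 had counts in 2 of the 30 libraries, 1 count each. Sp5 was not tested, and the exact permutation tests of Nkd1 and Notum did not pass (lowest adjusted p = 0.29 over 20 tests, in which 4 against 4 libraries allow no p below 0.029). The lowest p between the models was that of Nkd1 in 100 mm3 tumors, where Colon 26 tumors held 3, 4, 7 and 7 counts and CT-26 tumors 0, 0, 0 and 4 counts (exact p = 0.057), groups that overlapped.

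**Figure D1:**
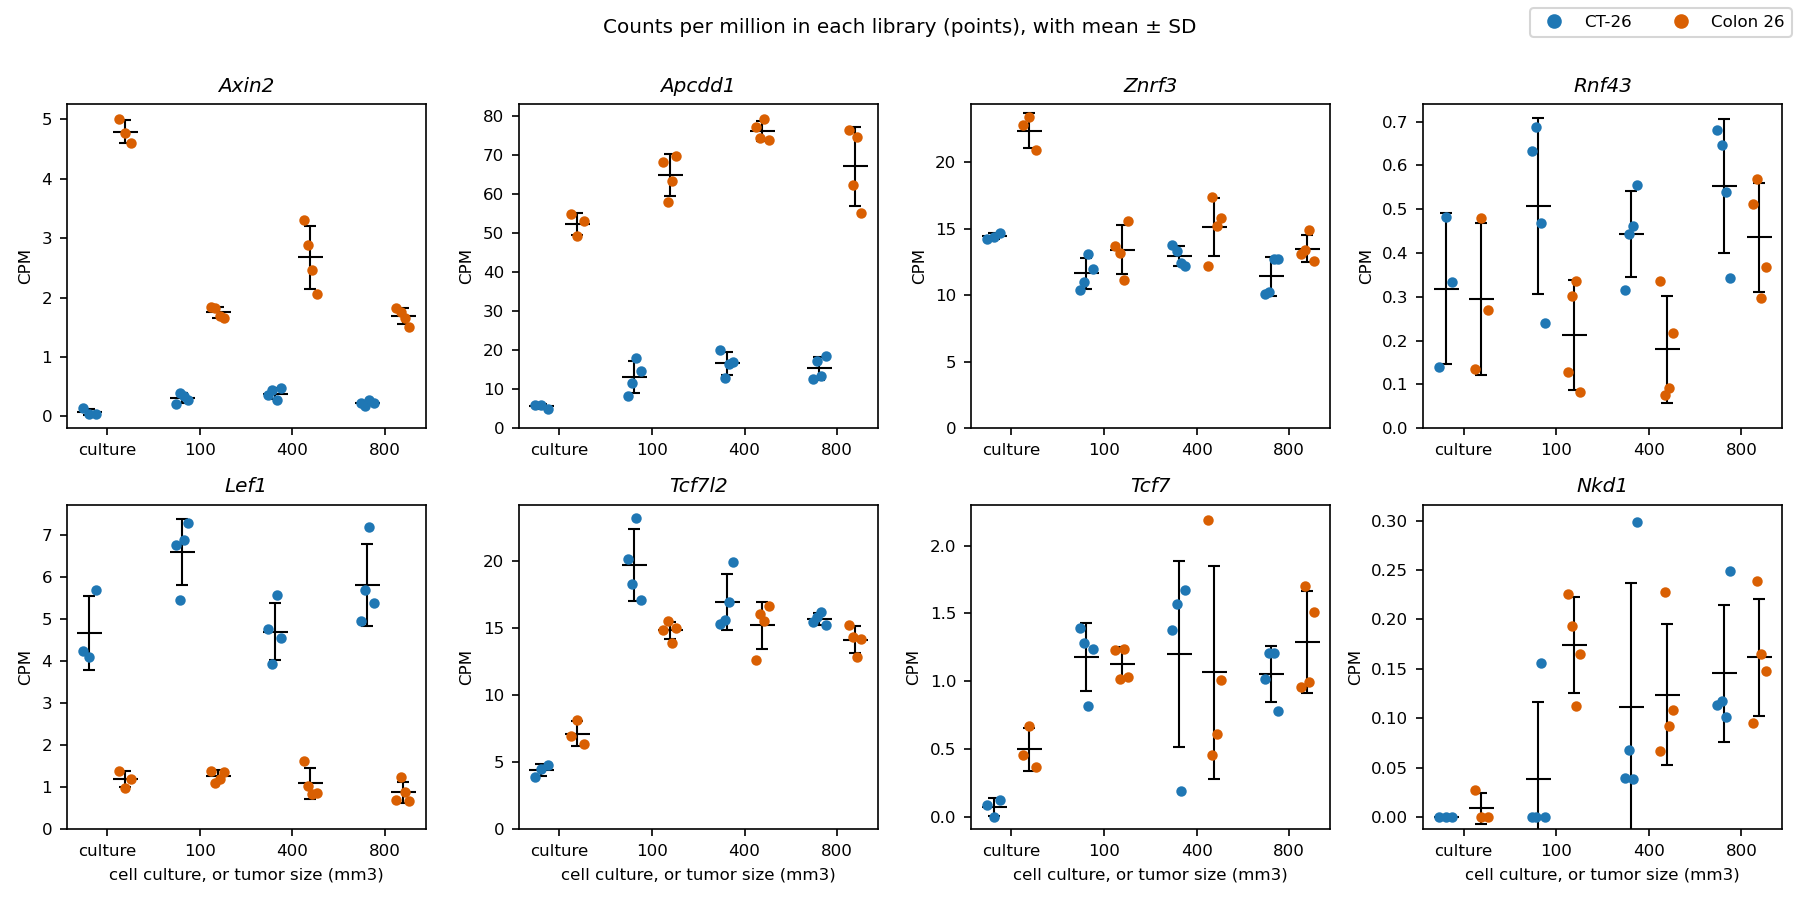
Level in CPM (linear axes that differ between panels) of 8 genes in each library, by cell culture or tumor size on the x axis, with CT-26 in blue and Colon 26 in orange; points are libraries and black marks the mean ± SD. Axin2 and Apcdd1 of Colon 26 and Lef1 of CT-26 lie apart from the other model in every setting, while the group means of Tcf7 and Tcf7l2 are higher in tumors than in culture, with 2 Colon 26 tumors of 400 mm3 (0.455 and 0.616 CPM Tcf7) below the highest Colon 26 culture (0.674 CPM). Notum and Sp5, with at most 4 counts in a library, are left out, and the lower ends of some Nkd1 error bars fall below the axis.

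Of the TCF/LEF factors, Lef1 differed in the direction opposite to Axin2. The CT-26 cultures held 4.09, 4.24 and 5.68 CPM and the Colon 26 cultures 0.987, 1.20 and 1.38 CPM. The Colon 26 level was 0.264 times that of CT-26, a log2 fold change of -1.92 (SE 0.18, adjusted p = 7.3e-08 by edgeR). Lef1 was thus the member that was DE and lower in Colon 26 cultures, where Axin2, Apcdd1 and Tcf7 were DE and higher.

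Lef1 in CT-26 tumors was at 5.46, 6.75, 6.87 and 7.28 CPM (100 mm3), 3.92, 4.54, 4.77 and 5.57 CPM (400 mm3) and 4.96, 5.39, 5.7 and 7.18 CPM (800 mm3). In Colon 26 tumors it was at 1.10, 1.20, 1.36 and 1.39 CPM, 0.831, 0.868, 1.02 and 1.62 CPM, and 0.664, 0.703, 0.893 and 1.23 CPM. The highest Colon 26 tumor of the 12 was therefore below the lowest CT-26 tumor. The log2 fold changes were -2.39 (SE 0.15), -2.11 (0.25) and -2.73 (0.23), with adjusted p = 5.4e-06, 0.00022 and 7.1e-06 by edgeR. Markers of T cells, which express Lef1, had higher median sums in CT-26 tumors at each size, 40.3 against 33.4 CPM at 100 mm3, 58.0 against 25.6 CPM at 400 mm3 and 47.7 against 39.5 CPM at 800 mm3. Their ranges overlapped at each size (at 400 mm3 30.3 to 109 against 15.3 to 33.6 CPM), and their part in the Lef1 difference of the tumors was not tested. In the cultures 9 of 12 (CT-26) and 11 of 12 T cell markers (Colon 26) were at or under 3 counts in every library, with Cd2, Cd5 and Il7r at 0 in both.

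Tcf7 differed between the lines in culture and not detectably in tumors. It had 0, 2 and 3 counts in CT-26 cultures (0 to 0.125 CPM) and 15, 17 and 28 counts in Colon 26 cultures (0.366, 0.460 and 0.674 CPM). The log2 fold change was 2.84 (SE 0.59, adjusted p = 0.00037 by edgeR), and the pooled ratio was 7.27 (95% counting interval 2.95 to 23.2). The tumors of the models overlapped, at 0.819 to 1.39 against 1.02 to 1.24 CPM at 100 mm3 and 0.779 to 1.21 against 0.958 to 1.70 CPM at 800 mm3. The log2 fold changes were -0.08 (SE 0.21), -0.16 (0.65) and 0.29 (0.26) at 100, 400 and 800 mm3.

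At 400 mm3, 2 libraries stood apart in Tcf7. The CT-26 tumors held 0.192, 1.38, 1.57 and 1.67 CPM and the Colon 26 tumors 0.455, 0.616, 1.01 and 2.19 CPM. The Colon 26 tumor at 2.19 CPM also had the highest Axin2 (3.30 CPM) and Lef1 (1.62 CPM) of its group, and its skeletal muscle markers summed to 2190 CPM against 1.27 to 5.14 CPM in the others. Its macrophage (1280 against 604 to 773 CPM) and adipocyte sums (29.9 against 5.84 to 11.5 CPM) were also the highest of its group. Its endothelial (91.0 against 103 to 131 CPM) and pericyte sums (159 against 272 to 343 CPM) were the lowest. Its T cell sum (26.4 CPM) lay among the others (15.3 to 33.6 CPM). The CT-26 tumor at 0.192 CPM had the lowest macrophage sum (207 against 560 to 740 CPM), Ptprc level (43.3 against 79.8 to 123 CPM) and T cell sum (30.3 against 47.4 to 109 CPM) of its group. Among Colon 26 tumors of 100 mm3, the one with the highest muscle sum (1130 CPM) had the lowest Tcf7 (1.02 CPM) and Lef1 (1.10 CPM). The part of these tissues in the levels was not tested. Without the Colon 26 tumor at 2.19 CPM the Tcf7 difference at 400 mm3 was -0.78, and without the CT-26 tumor at 0.192 CPM it was -0.52, neither of which passed the test.

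Tcf7l2 had the highest mean FPKM of the TCF/LEF factors in all 8 groups, although in CT-26 cultures its range (1.5 to 1.62 FPKM) lay within that of Lef1 (1.31 to 1.78 FPKM). It was at 3.91, 4.49 and 4.76 CPM in CT-26 cultures and 6.32, 6.90 and 8.14 CPM in Colon 26 cultures, a 1.68-fold difference (log2 fold change 0.75, SE 0.12, adjusted p = 2.5e-05 by edgeR) below the minimum fold. In tumors of 100 mm3 the order was the opposite, with 17.1, 18.3, 20.1 and 23.2 CPM in CT-26 against 13.9, 14.8, 15.0 and 15.5 CPM in Colon 26. This difference was smaller still (log2 fold change -0.42, SE 0.10, adjusted p = 0.0079) and not DE. At 400 and 800 mm3 Tcf7l2 ranged from 15.2 to 19.9 CPM in CT-26 and from 12.6 to 16.6 CPM in Colon 26, with log2 fold changes of -0.16 and -0.15 that did not pass the test.

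Counted over the genes that passed edgeR's filter, 4 of 7 members were DE between the cultures, 3 higher and 1 lower in Colon 26, beside 22.9% of the 14334 genes in the test (10.6% up and 12.3% down). Among 100 mm3 tumors 3 of 6 tested members were DE, 2 higher (Axin2, Apcdd1) and 1 lower (Lef1), against 13.2% of all genes tested (6.17% higher and 7.06% lower). The counts were also 2 higher and 1 lower of 6 at 400 mm3 (background 14.3%, 6.48% higher and 7.79% lower) and of 7 at 800 mm3 (background 14.1%, 6.50% higher and 7.62% lower). The members without a test were those with too few counts, and the tested ones include genes that passed the filter through the model in which they were high. Among tumors, colon epithelium markers summed to 119 to 255 CPM in CT-26 and 13.5 to 42.5 CPM in Colon 26, sums that weigh abundant genes most. The mean log2 CPM of the same 9 markers overlapped between the models at each size. Its group means were -0.081 in CT-26 against -0.4 in Colon 26 at 100 mm3, -0.0912 against -0.49 at 400 mm3 and 0.28 against 0.34 at 800 mm3. NK cell sums (4.86 to 19.6 against 0.683 to 4.99 CPM) were mostly higher in CT-26. Pericyte sums (95.8 to 231 against 159 to 343 CPM) were mostly lower, with Cspg4 at 3.90 against 79.6 CPM at 100 mm3, a gene at 0.304 and 82.3 CPM in the CT-26 and Colon 26 cultures, while Pdgfrb (116 against 97.2 CPM) and Rgs5 (35.7 against 31.8 CPM) were not lower at that size. Their part in the tumor differences was not tested.

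**Figure D2:**
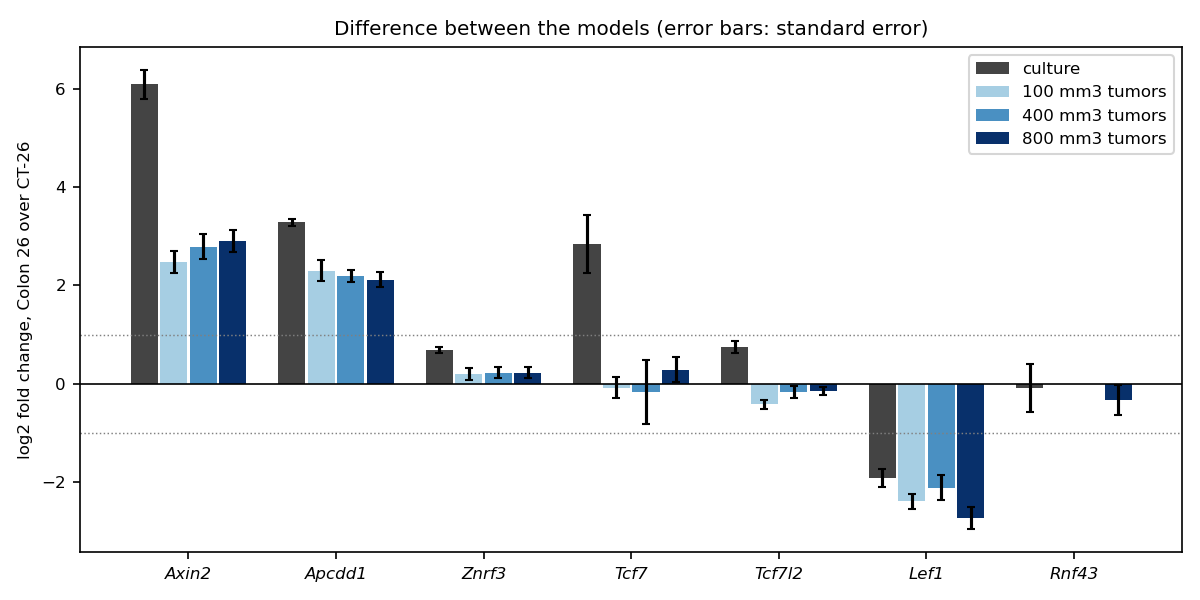
Log2 fold change of Colon 26 over CT-26 (y axis) for the members that passed edgeR's filter, in culture and in tumors of 100, 400 and 800 mm3; bars start at 0, error bars are standard errors and dotted lines mark the minimum fold for a DE call. Axin2 falls from 6.09 in culture to 2.47 to 2.90 in tumors, Tcf7 from 2.84 to values near 0, and Lef1 stays between -1.92 and -2.73; Rnf43 has no bar where it was below the filter.

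Lef1 made up a lower share of TCF/LEF FPKM in every Colon 26 library than in any CT-26 library of the same setting. Lef1 made up 44.3% to 51.7% (mean 48.4%) of the summed FPKM of Lef1, Tcf7, Tcf7l1 and Tcf7l2 in CT-26 cultures and 10.4% to 16.3% (mean 14.3%) in Colon 26 cultures. Tcf7l2 made up 49.8% and 77.9% on average. The summed level itself was alike in both lines, with means of 3.15 and 2.95 FPKM. In tumors the sum was higher, 7.01 to 8.79 FPKM in CT-26 and 5.38 to 5.91 FPKM in Colon 26 as group means, and the Lef1 share was 25.4%, 22.5% and 25.8% in CT-26 against 8.21%, 7.22% and 6.03% in Colon 26 at 100, 400 and 800 mm3. The Lef1 share was lower in Colon 26 by 34.1 points in culture (exact permutation p = 0.1, the smallest that 3 against 3 libraries allow, adjusted p = 0.13). It was lower by 17.2, 15.3 and 19.7 points in tumors (exact p = 0.029 each, the smallest that 4 against 4 allow, adjusted p = 0.077 over 8 comparisons). The FPKM carry no depth of their own, and the shares are taken within a library. The summed FPKM are compared between groups as the authors gave them, without TMM factors.

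**Figure D3:**
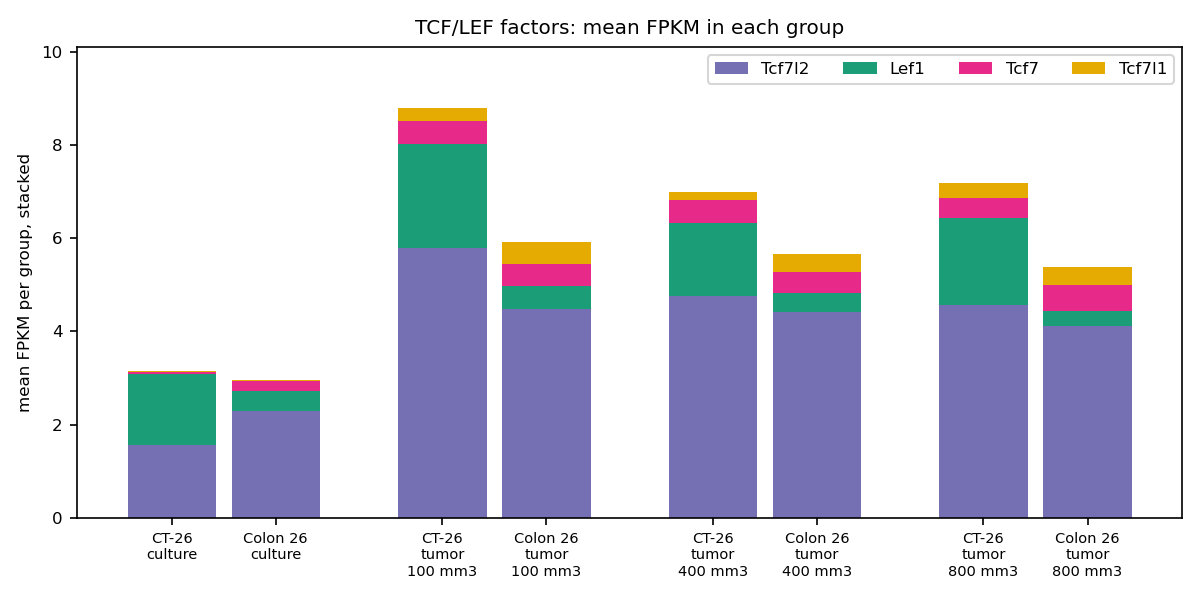
Mean FPKM of Tcf7l2, Lef1, Tcf7 and Tcf7l1 stacked for each of the 8 groups (3 culture or 4 tumor libraries each); the y axis is linear from 0. The stacks of both cultures are of like height, 3.15 and 2.95 FPKM, but the green Lef1 part is 1.53 FPKM in CT-26 and 0.412 FPKM in Colon 26, and it remains the wider part in CT-26 tumors.

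Growth as a tumor was compared with culture at 100 mm3. In CT-26, Tcf7 rose from a mean of 0.0728 to 1.18 CPM, a log2 fold change of 4.0 (SE 0.58, adjusted p = 0.00035 by edgeR; pooled ratio 17.1, 95% counting interval 7.15 to 53.6). Tcf7l2 rose from 4.39 to 19.7 CPM (log2 fold change 2.17, SE 0.14, adjusted p = 3.9e-06) and Apcdd1 from 5.58 to 13.1 CPM (1.24, 0.26, adjusted p = 0.0025). These were 3 of 6 tested members, all higher in tumors, beside 32.2% of all genes tested (22.2% up and 10.1% down). Tcf7, with 5 counts in the 3 cultures, passed the filter through the tumors in which it was high, so the count is a description.

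Axin2 of CT-26 was below the filter in this comparison. It had 1, 1 and 3 counts in the cultures and 5, 8, 9 and 12 counts in the tumors, groups that did not overlap, with means of 0.0729 and 0.307 CPM. The exact permutation p was 0.057, the smallest that 3 against 4 libraries allow (adjusted p = 0.29), and the pooled ratio was 4.51 (95% counting interval 1.76 to 14.8). Without the filter, edgeR gave a log2 fold change of 2.06 (adjusted p = 0.018), and DESeq2 2.15 (adjusted p = 0.048). Lef1 (0.50, SE 0.17, adjusted p = 0.026) and Znrf3 (-0.31, 0.10, adjusted p = 0.026) moved by less than the minimum fold, and Rnf43 (0.64, 0.49) did not pass the test.

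In Colon 26, Axin2 fell from 4.61 to 5.01 CPM in the cultures to 1.65 to 1.84 CPM in the 100 mm3 tumors, a log2 fold change of -1.45 (SE 0.12, adjusted p = 4.3e-06 by edgeR). Tcf7 rose from a mean of 0.500 to 1.13 CPM (1.17, SE 0.25, adjusted p = 0.0025) and Tcf7l2 from 7.12 to 14.8 CPM (1.06, 0.10, adjusted p = 1e-05). Znrf3 went from 22.4 to 13.4 CPM, groups that did not overlap but differed by less than the minimum fold (-0.74, SE 0.10, adjusted p = 0.00018). Apcdd1 (0.31, 0.07, adjusted p = 0.003), Lef1 (0.09, 0.19) and Rnf43 (-0.45, 0.55) were not DE.

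The count in Colon 26 was 3 of 7 tested members, 2 higher and 1 lower, against 26.9% of all genes tested (20.8% higher and 6.11% lower). Without Colon 26 culture replicate 3, Tcf7 and Tcf7l2 were both at 0.98, just below the minimum fold, and 1 member was DE. Nkd1, below the filter, had 1 count in the Colon 26 cultures and 3 to 7 counts in each tumor (exact permutation p = 0.057, pooled ratio 21.2 with a 95% counting interval of 3.41 to 878). Without the filter its log2 fold change was 3.88 (adjusted p = 0.0028 by edgeR).

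The marker sums given above rose between the same groups. T cell, leukocyte, macrophage, fibroblast and endothelial sums were higher in every 100 mm3 tumor than in every culture of the same model, as were Tcf7 and Tcf7l2. Their part in the changes of Tcf7, Tcf7l2 and Axin2 was not tested.

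**Figure D4:**
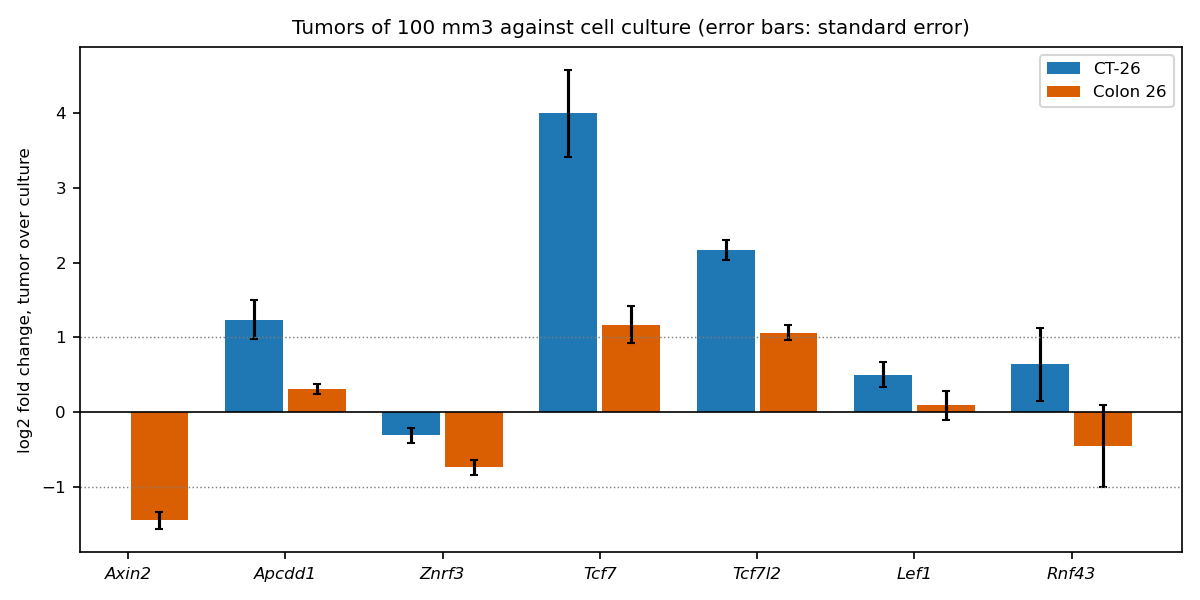
Log2 fold change of 100 mm3 tumors over culture (y axis) in CT-26 (blue) and Colon 26 (orange) for the members that passed edgeR's filter; bars start at 0, error bars are standard errors and dotted lines mark the minimum fold. Tcf7 and Tcf7l2 rise in both models and more in CT-26 (4.0 against 1.17 and 2.17 against 1.06), Axin2 falls in Colon 26 (-1.45), and CT-26 Axin2 has no bar because it was below the filter.

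The change of the model difference from culture to 100 mm3 tumors was tested as an interaction. The Axin2 difference shrank on the log2 scale (interaction -3.6, SE 0.43, adjusted p = 1.5e-05 by edgeR), as did that of Tcf7 (-2.89, SE 0.63, adjusted p = 0.0019), and that of Tcf7l2 moved by -1.16 (0.16, adjusted p = 6.4e-05) from higher to lower in Colon 26. These 3 of 7 tested members were called, all in the negative direction, against 17.6% of all genes tested (8.29% higher and 9.31% in that direction). Apcdd1 (-0.98, SE 0.26, adjusted p = 0.008) and Znrf3 (-0.48, 0.15, adjusted p = 0.019) moved by less than the minimum fold. Lef1 (-0.46, 0.24, adjusted p = 0.14) and Rnf43 (-1.14, 0.79, adjusted p = 0.27) did not pass the test. The value of Axin2 rests on the 5 counts of the CT-26 cultures, and ran from -4.37 to -3.27 with each library left out in turn.

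Tumor growth from 100 to 800 mm3 moved no member past the thresholds. In CT-26 0 of 6 tested members were DE (0.0% of all genes tested), with log2 fold changes of -0.33 to 0.22. Of these, 1 had an unadjusted p under 0.05, Tcf7l2 (-0.33, SE 0.10, adjusted p = 0.42 by edgeR). In Colon 26 0 of 7 were DE (1.33% of all genes tested, 0.169% higher and 1.16% lower), and 2 were under an unadjusted p of 0.05, Lef1 (-0.53, SE 0.23, adjusted p = 0.23) and Rnf43 (0.99, 0.42, adjusted p = 0.22). DESeq2 also called 0 members in each model, while over all genes it called 39 in CT-26 and 309 in Colon 26, and edgeR 0 and 205. The change of the model difference from 100 to 800 mm3 was called for 0 of 7 members, with 0 under an unadjusted p of 0.05 and 0 called by DESeq2 (beside 0.0308% of all genes by edgeR, 0.0123% higher and 0.0185% lower). Colon 26 tumors of 400 mm3 lay above those of 100 and 800 mm3 in Axin2 (2.06 to 3.30 against 1.65 to 1.84 and 1.51 to 1.82 CPM), a difference that was not tested.

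Beta-catenin itself and most genes of the upstream machinery differed by less than the minimum fold. Ctnnb1 was at 378 and 401 CPM in CT-26 and Colon 26 cultures and at 461 to 486 CPM in the tumor groups, with model differences of 0.14, 0.04, 0.07 and -0.04 on the log2 scale (SEs 0.03, 0.05, 0.07 and 0.06). Of 29 core genes of the pathway (beta-catenin, the destruction complex, co-receptors and nuclear cofactors), 2 of 27 tested were DE between the cultures (22.9% of all genes). The culture groups did not overlap for 22 of the 27. That share was not counted over all genes and is not read as a trait of the core genes. By another measure most genes differed between the cultures, with 11511 of 14334 at an unadjusted p under 0.05 by edgeR. Between tumors of 100, 400 and 800 mm3, 1, 3 and 2 of 28 core genes were DE (13.2%, 14.3% and 14.1% of all genes). Their median log2 fold changes were 0.14, 0.08, 0.08 and 0.16, beside medians of all genes tested from -0.01 to 0.03. Apc2, a homolog of Apc, was among the DE genes in each setting, at 1.05 and 15.4 CPM in the CT-26 and Colon 26 cultures and at 0.341 to 0.644 against 19.1 to 21 CPM as group means in tumors. Its log2 fold changes were 3.92, 4.85, 5.94 and 5.2 (SEs 0.10, 0.29, 0.19 and 0.20). Tle4, a co-repressor bound by TCF/LEF factors, was lower in Colon 26 cultures (-1.37, SE 0.13), Tle2 of the same family was higher in Colon 26 tumors of 400 and 800 mm3 (1.39 and 1.08), and Tcf7l1 at 400 mm3 (1.02, SE 0.31).

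Of 24 further genes known as beta-catenin targets, 12 to 14 passed the filter. Between the cultures 4 of 12 were DE (22.9% of all genes), with Jag1, Ephb2 and Id2 higher in Colon 26 (4.26, 1.67 and 1.44) and Sox9 lower (-1.92). At 100 mm3 4 of 14 were DE (13.2% of all genes), Nkd2 and Jag1 higher (2.72 and 1.23) and Lgr6 and Ephb3 lower (-1.09 and -1.06). At 400 and 800 mm3 3 of 13 were DE (14.3% and 14.1% of all genes), again with Nkd2 (2.88 and 1.82) and Jag1 (1.1 and 1.36) higher and Lgr6 (-2.14 and -2.15) lower. The targets therefore did not share one direction between the models, and their median log2 fold changes were 0.38, 0.17, 0.00 and 0.02. Jag1, a ligand of Notch receptors, was at 0.271 and 4.94 CPM in the cultures and 4.45 to 5.48 against 10.1 to 12.9 CPM in tumors. Nkd2, the paralog of Nkd1, had at most 2 counts in a culture and means of 0.201 to 0.308 CPM in CT-26 and 1.09 to 1.51 CPM in Colon 26 tumors. Lgr6, a receptor of R-spondins, was at 28.2 and 22.8 CPM in culture and at 9.15 to 19.8 against 4.04 to 4.47 CPM in tumors. Lgr5, the intestinal stem cell marker, did not exceed 18 counts in any library.

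From culture to 100 mm3 tumors, 5 of 28 tested core genes were DE in CT-26 (4 higher, 1 lower) and 3 of 28 in Colon 26 (3 higher), beside 32.2% and 26.9% of all genes. Tcf7l1, a mostly repressive TCF, had 4 and 3 counts in all in the CT-26 and Colon 26 cultures and 89 and 155 in the 100 mm3 tumors. Tle4 was higher in tumors of both models (log2 fold changes 1.14 and 2.06). Ctnnbip1, an inhibitor of beta-catenin binding to TCF, was higher (1.38) and Gsk3b, a kinase of the destruction complex, lower (-1.26) in CT-26 tumors. Of the other targets 5 of 12 were DE in CT-26 and 7 of 14 in Colon 26 (again 32.2% and 26.9% of all genes), with Jag1 higher (4.35 and 1.39) and Lgr6 lower (-1.62 and -2.38) in both. Bambi, a decoy receptor of the TGF-beta family, had 0 and 3 counts in all in the cultures and means of 1.66 and 2.55 CPM in the 100 mm3 tumors. In the interaction, 0 of 28 core genes and 6 of 14 targets were called (2 higher, 4 lower), beside 17.6% of all genes.

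Levels of 4 members were set against marker scores, the mean log2 CPM of a marker list, within the 12 tumors of each model. Tcf7 and the T cell score had Pearson's r = 0.56 (permutation p = 0.048) and Spearman's rho = 0.66 (p = 0.021) in CT-26, and r = 0.42 (p = 0.17) and rho = 0.36 (p = 0.25) in Colon 26. After adjustment over 8 relations the p-values of r were 0.27 and 0.30, and those of rho 0.13 and 0.40, so neither passed 0.1. Without the 2 tumors farthest from the median score, r was 0.59 in CT-26 and 0.15 in Colon 26. Lef1 and the T cell score had r = -0.50 (permutation p = 0.10) and rho = -0.43 (p = 0.17) in CT-26 and r = -0.13 (p = 0.67) and rho = -0.05 (p = 0.89) in Colon 26.

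Axin2 and the fibroblast score had r = 0.41 (permutation p = 0.19) and rho = 0.50 (p = 0.11) in CT-26 and r = -0.06 (p = 0.86) and rho = -0.24 (p = 0.44) in Colon 26. Apcdd1 and the fibroblast score had r = 0.10 (permutation p = 0.75) and rho = 0.06 (p = 0.87) in CT-26 and r = -0.51 (p = 0.086) and rho = -0.63 (p = 0.033) in Colon 26. Without the 2 tumors farthest from the median, r was -0.68 and 0.07 for Lef1, 0.36 and -0.59 for Axin2, and -0.23 and -0.46 for Apcdd1, in CT-26 and Colon 26. With each size centred on its mean, r was 0.60 and 0.32 for Tcf7, -0.60 and -0.05 for Lef1, 0.68 and 0.04 for Axin2, and 0.19 and -0.59 for Apcdd1, after which the adjusted permutation p was 0.086 for Tcf7, Lef1 and Axin2 in CT-26 and Apcdd1 in Colon 26 and 0.49 to 0.91 for the other 4. Adjusted p-values of the 8 pooled r were 0.27 to 0.86, and of rho 0.13 to 0.89, so at an adjusted p of 0.1 the pooled relations passed in 0 of 8 cases. The permutations of the centred values ran across sizes and took no account of the centring. Their p-values are therefore likely too small, and no call was read from them.

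**Figure D5:**
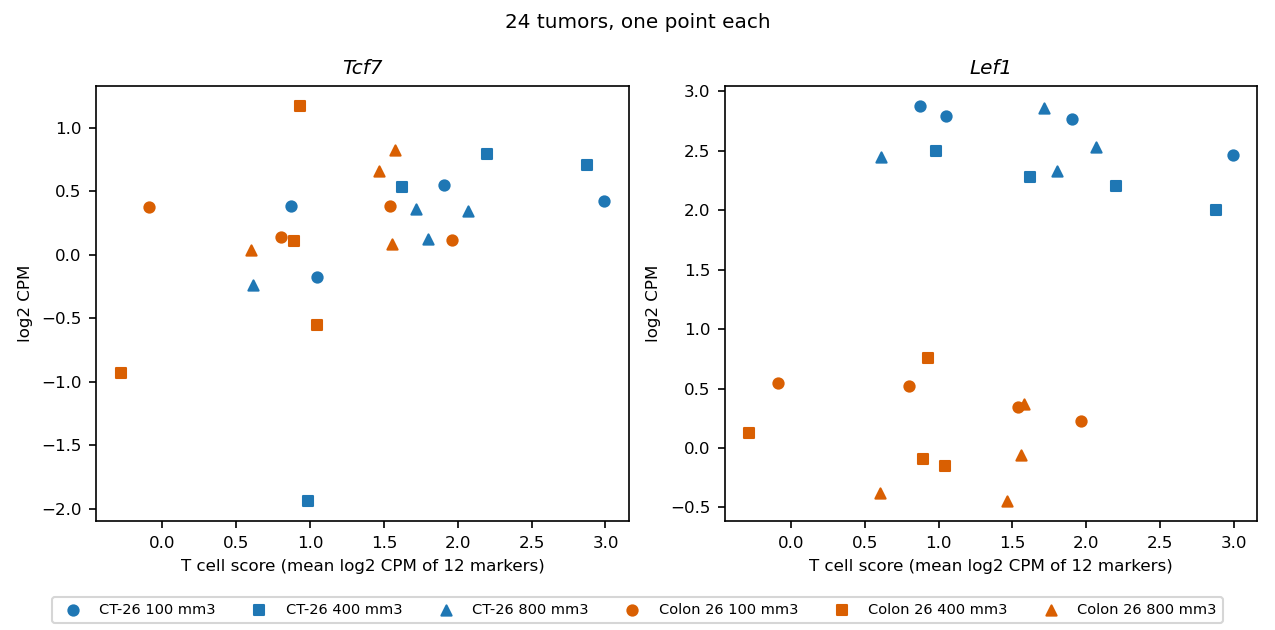
Log2 CPM of Tcf7 (left) and Lef1 (right) on the y axes against the T cell score (mean log2 CPM of 12 markers, x axis) in 24 tumors, blue for CT-26 and orange for Colon 26, with marker shapes for tumor size. Tcf7 overlaps between the models and has 1 low CT-26 tumor of 400 mm3, whereas Lef1 splits into a high CT-26 and a low Colon 26 band over the scores that both models share (0.61 to 1.96).

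For members with a mean of at least 1 CPM in tumors of both models, the genes with the most similar pattern were sought among 12870 genes, by the smaller of the Pearson's r over the 12 CT-26 and over the 12 Colon 26 tumors. The closest genes were Rundc3a, Rcc1l and Snrpb for Lef1 (r of 0.80 to 0.84 in CT-26 and 0.84 to 0.94 in Colon 26) and Serpina3n, C6 and Slc9a9 for Tcf7 (0.84 to 0.89 and 0.84 to 0.87). They were Nfix, Net1 and Fgf2 for Tcf7l2 (0.68 to 0.73 and 0.66 to 0.76), Rnf24, Pkd2 and Mib1 for Znrf3 (0.77 to 0.82 and 0.78 to 0.85), and Ginm1, Tm7sf3 and Man2a2 for Apcdd1 (0.73 to 0.74 and 0.74 to 0.79). The correlations share libraries, depth and tissue makeup and describe these 24 tumors. Axin2 was below 1 CPM in CT-26 tumors and was not compared.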

How the data were processed

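Per the paper's methods, poly-A RNA of cell lines and tumors was sequenced from both ends, and Array Studio gave gene counts under the annotation of Ensembl release 78. The authors deposited estimated counts, not normalized, of which 23.0% of the non-zero values were not whole, and FPKM made from them. The aligner, build and strand setting are not given in the sources used here. The estimated counts were rounded, although the planned tests named whole counts, and 97.7% of identifiers had a symbol in GENCODE M21 (GRCm38).

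Groups came from the labels. Comparisons used edgeR 4.0.16 (R 4.3.3) with TMM, its filter on low counts, only the libraries compared, and Benjamini-Hochberg adjustment over all genes tested. Standard errors came from the F statistics. The thresholds were those of the paper, which used DESeq2 1.24.0. DESeq2 1.42.0 was an alternative, as were other normalizations, filters and thresholds, 1 fit of all 30 libraries, limma 3.58.1 on log2(FPKM + 1) and log2(FPKM + 0.1), and leaving out each replicate. Members below the filter had two-sided exact permutation tests (20 tests). Log2 CPM used a prior count of 2, correlations 100000 permutations, and a gene at or under 3 counts counted as at the floor. Python 3.11.15 with scipy 1.17.1 did the rest, and the fits were tested on simulated data. Named genes are the members, the 3 most similar genes of each, and in each comparison the 3 DE genes of the core and of the target list with the largest changes. Ctnnb1, Lgr5, Id2 and Ephb3 are named outside that rule, after their values were seen. Members and lists were chosen with earlier results of these data known, so their counts are descriptions.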

Additional observations from a re-analysis of the deposited data

Results flagged for a closer look

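Among groups of 4 tumors, 3 of 49 member levels held a library far from the others, and chance would flag about 1 in 20 groups. Tcf7 was at 0.192 CPM in the lowest CT-26 tumor of 400 mm3, where the others were at 1.38 to 1.67 CPM. Nkd1 was at 0.156 CPM in the highest CT-26 tumor of 100 mm3 (4 counts, with 0 in the others) and at 0.249 CPM in the highest CT-26 tumor of 800 mm3 (8 counts, with 3 or 4 in the others).

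The difference between the models changed from culture to 100 mm3 tumors at an adjusted p of at most 0.1 for 5 members, by the interaction term of edgeR's quasi-likelihood test. Over all genes, 8399 of 16501 had an unadjusted p under 0.05 in this test, and the share at the adjusted threshold is not given here. The log2 values of the 5 members were -3.6 for Axin2, -2.89 for Tcf7, -1.16 for Tcf7l2, -0.98 for Apcdd1 and -0.48 for Znrf3, the last pair below the minimum fold. All 5 are negative. For Axin2 and Apcdd1 the difference was higher in Colon 26 on both sides and narrower in tumors. For Tcf7 it was near 0 in tumors, and for Tcf7l2 it changed sign. T cell, macrophage, fibroblast and endothelial marker sums rose in both models over the same contrast, and their part was not tested.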

How the results depend on the processing

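Counts of DE members that moved by over 1.5 times were few. Between the cultures, 4 became 2 with at least 10 counts in every library or with limma on log2(FPKM + 1). At 400 mm3, 3 became 5 without a filter, by Rnf43 (-1.26, adjusted p = 0.096) and Notum (adjusted p = 0.099, with 0 counts in the CT-26 tumors), and 1 with limma on log2(FPKM + 1). From culture to 100 mm3 tumors, 3 became 5 without the minimum fold in each model and in the interaction, with the share of all genes at that setting not given here. With limma on log2(FPKM + 1) they became 1 in CT-26, 0 in Colon 26 and 0 in the interaction. With limma on log2(FPKM + 0.1) the Colon 26 count was 1, and with at least 10 counts the interaction count was 1. Both limma scales understate changes of low genes, and the stricter filter tested 4 members in these comparisons. With replicates left out, the Colon 26 count was 1 to 3.

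Without a filter, Rnf43 was also DE at 100 mm3 (-1.21, adjusted p = 0.094). Values near 0 turned. The Lef1 interaction from 100 to 800 mm3 was 0.01 with limma on log2(FPKM + 1), and the relations of Lef1 with the T cell score on log2(FPKM + 1) and of Axin2 with the fibroblast score centred by size were 0.01 and 0.04 in Colon 26. With replicates left out, ranges that crossed 0 were those of the model difference of Rnf43 in culture (-0.39 to 0.37) and of Tcf7 at 100 mm3 (-0.20 to 0.02) and 400 mm3 (-0.78 to 0.09), of Lef1 (-0.03 to 0.20) and Rnf43 (-0.78 to 0.09) from culture to Colon 26 tumors, of Rnf43 (-0.13 to 0.31) and Znrf3 (-0.08 to 0.03) over growth in CT-26, of Znrf3 (-0.08 to 0.08) and Apcdd1 (-0.03 to 0.12) in Colon 26, and of the Znrf3 interaction over growth (-0.05 to 0.10). The cause was not tested. Apcdd1 passed the minimum fold in the culture interaction in 5 of 14 such fits, to -1.13.

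Of the other log2 fold changes, 614 alternative values kept direction and call, 17 lost and 10 gained a call. No paired analysis was possible because the labels carry no replicate numbers. Nkd1, Notum, Sp5 and CT-26 Axin2 rest on few counts.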
